A study of Mus musculus with 40 samples.

Results

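The comparison described here sets the thiol-labelled miRNAs pulled down from brown fat against those pulled down from the hypothalamus of the same cohort of mice. It uses 10 of the study's 40 small RNA libraries, 5 pull-down (IP) libraries per tissue, chosen by their tissue and library type in the labels. All 1894 mature miRNA entries of the count table were considered, of which 826 had a count in these 10 libraries. The 10 input libraries of the same tissues, which hold the RNA before the pull-down, served as the measure without enrichment. The remaining 20 libraries are of liver and gastrocnemius muscle.

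The mice were male UCP1;UPRT animals, 8 to 12 weeks old and fed standard chow, with the transgene Tg(CAG-GFP,-Uprt)985Cdoe/J from one parent and Tg(Ucp1-cre)1Evdr/J from the other, and the labels give no genotype for single mice. Uprt encodes uracil phosphoribosyltransferase, which lets a cell build 4-thiouracil (4TU) into new RNA. Its expression depends on Cre, and Cre on a Ucp1 promoter, which is known for its activity in thermogenic fat. Every group used here received 4TU intraperitoneally at 50 mg/kg, 4 times at intervals of 48 h. The labels name no group without 4TU or without Cre, so the level that a pull-down reaches without the label was not measured in these libraries. The question of the study is which miRNAs carry the brown fat label, in brown fat and in remote organs. The brown fat IPs came from mice 2, 4, 6, 7 and 10 and the hypothalamus IPs from mice 2, 4, 6, 8 and 9, so 3 mice gave both tissues. IP libraries were sequenced in pool 2 and inputs in pool 1, so library type and pool cannot be told apart, while both tissues of the IP comparison share a pool.

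A mature miRNA is a short RNA cut from a hairpin precursor and held by an Argonaute protein. It finds its target mRNAs mainly by the seed, bases 2 to 8 from its 5′ end, and miRNAs with one seed form a family. Many miRNAs are nearly confined to a cell type, such as miR-124 to neurons or the miR-1/133/206 group to striated muscle, so a small RNA profile reads as a record of the cells that fed it. In brown adipocytes miR-378 is made from an intron of Ppargc1b, and the miR-193b/365 cluster and miR-455 are known for their part in brown adipocyte formation. In bulk tissue RNA, fewer cells of a type and less RNA per cell cannot be told apart.

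Mature sequences are shown for the miRNAs on which the comparison turns, from RefSeq (GRCm38.p6), 5′ to 3′, with the seed in capitals. Of the 202 entries tested, 171 were matched to a mature sequence there. The first set was higher in the brown fat IP: miR-10a and miR-10b have 1 seed, as do miR-30a and miR-30e, and miR-378b and miR-378c are near copies whose seeds are set off by a single base.
miR-10a-5p: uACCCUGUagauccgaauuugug
miR-10b-5p: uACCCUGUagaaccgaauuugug
miR-206-3p: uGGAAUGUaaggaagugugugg
miR-30a-5p: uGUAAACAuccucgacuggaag
miR-30e-5p: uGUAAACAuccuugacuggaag
miR-378b: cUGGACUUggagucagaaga
miR-378c: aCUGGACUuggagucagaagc
The second set was lower in the brown fat IP and holds miRNAs known from neurons, endocrine cells, oligodendrocytes and an imprinted cluster.
miR-7a-5p: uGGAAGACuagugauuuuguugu
miR-7b-5p: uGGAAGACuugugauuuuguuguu
miR-9-5p: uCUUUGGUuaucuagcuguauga
miR-760-3p: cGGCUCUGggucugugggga
miR-1224-5p: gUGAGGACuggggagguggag
miR-219b-5p: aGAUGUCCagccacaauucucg
miR-127-3p: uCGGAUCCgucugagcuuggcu
miR-770-3p: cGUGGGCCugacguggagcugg
The third set shows members with a shared seed: miR-92b went the opposite way from miR-92a and miR-25, and let-7e is shown beside its relatives let-7a and let-7g.
miR-92a-3p: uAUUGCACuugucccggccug
miR-25-3p: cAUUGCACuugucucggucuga
miR-92b-3p: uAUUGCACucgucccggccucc
let-7a-5p: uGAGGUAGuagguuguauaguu
let-7e-5p: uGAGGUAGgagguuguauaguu
let-7g-5p: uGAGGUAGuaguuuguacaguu

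Total counts ran from 210554 to 816971 in the brown fat IPs and from 67790 to 229582 in the hypothalamus IPs, with a median of 413 and 414 miRNAs detected per library. Input totals ran from 968886 to 2121912 in brown fat and from 152980 to 5562423 in the hypothalamus. The rank correlation between libraries was 0.95 to 0.98 within the brown fat IPs, 0.84 to 0.95 within the hypothalamus IPs and 0.07 to 0.23 between the tissues. Hypothalamus IP 5 stood apart from the other hypothalamus IPs by its miR-375 and miR-7, and hypothalamus input 4, the shallowest input, by its muscle, liver and brown fat miRNAs. Levels are given in CPM, a library's counts scaled to a total of 1000000, or as a percent of the library's counts. A positive log2 fold change means more in brown fat than in the hypothalamus, on edgeR's TMM scale, and is followed by the standard error of the fit (n = 5 and 5).

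The pull-downs of the 2 tissues held different miRNAs. Brown fat was led by let-7f-5p (16% ± 1.21 of counts, SD), miR-1a-3p (16.8% ± 7.85) and miR-378a-3p (12.7% ± 3.5), and the hypothalamus by let-7f-5p (16.5% ± 5.42), let-7a-5p (13.2% ± 4.72) and miR-7a-5p (10.7% ± 6.79, highest in library 5). Of the 202 miRNAs that passed the filter on low counts, 147 (72.8%) differed at an adjusted p under 0.05 in edgeR's quasi-likelihood test, 60 (29.7%) higher and 87 (43.1%) lower in brown fat. Without overlap of the 5 and 5 CPM values, 52 (25.7%) were higher and 80 (39.6%) lower. The 202 held at least 99.52% of the counts of each brown fat IP and 98.93% of each hypothalamus IP.

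Because so much of the profile differed, the zero point of the log2 scale was uncertain. TMM took brown fat IP 2 as its reference, and taking each of the other libraries in turn moved the median of all miRNAs up by 0.145 to 1.3 log2 units, with hypothalamus IP 2 at the top. Scaling by the median of ratios (RLE) moved it by 0.295. The values printed here lie at the low end of that range, so differences of about 1 log2 unit, let-7 above all, have no settled sign. Leaving out a library also moved the median up, by 0.263 without hypothalamus IP 4 to 1.22 without brown fat IP 2. Calls gained or lost in those fits were made on that moved zero point, so they do not measure the weight of a library alone. Of the 147 calls, 56 of those higher and 69 of those lower were made in the same direction in every alternative that tested them, and none was called in the opposite direction.

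The miR-378 entries were among the largest differences on the brown fat side. For miR-378a-3p the brown fat IPs held 115519, 173426, 78658, 143569 and 124512 CPM and the hypothalamus IPs 571, 289, 645, 1047 and 254 CPM. The groups lay far apart, with a log2 fold change of 7.88 ± 0.55 (edgeR adjusted p = 3.5e-10). For miR-378c the 5 brown fat values were 2027, 4487, 1661, 3529 and 2728 CPM and the hypothalamus values 13.1, 9.96, 23.2, 29.5 and 9.58 CPM (7.38 ± 0.58, edgeR adjusted p = 8.39e-10). The other arm of the hairpin, miR-378a-5p, had 648 counts over the brown fat IPs and 0 over the hypothalamus IPs, which is at least 82.6-fold higher at a floor of 3 counts over the group. miR-378b had 735 counts against 1, a ratio of 281 with an exact 95% interval of 50.3 to 11100, and miR-378d had 179 against 0, at least 22.8-fold higher. These entries differ by few bases, so reads may be split between them, and each is uncertain on its own. Intervals and floors here cover counting error only, since PCR reads carry no molecular identifiers.

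Several other miRNAs of the brown adipocyte list were also higher in brown fat. The list, whose counts include the miR-378 entries above, has 29 entries, of which 25 had a count. Of the 14 entries that passed the filter, 11 were higher, 1 lower and 2 not called. The median log2 fold change was 5.36, or 4.57 with entries at 0 in a group set at their bound, beside -0.29 over all 202. An entry near 0 in one tissue could pass the filter only through the other, so the 9 entries with at least 10 CPM on average in both groups were counted too: 6 were higher, 1 lower and 2 not called. Over all miRNAs under that filter, 48 of 158 (30.4%) were higher and 55 (34.8%) lower.

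miR-193a-5p had 518 counts in the brown fat IPs (174 to 404 CPM) and 3 in the hypothalamus IPs, a ratio of 66.1 with an interval of 22.5 to 321. miR-365-3p, from the cluster with miR-193b, stood at 83.2, 75.2, 204, 508 and 298 CPM against 4.36, 0, 37.1, 14.8 and 9.58 CPM, with a log2 fold change of 4.03 ± 0.78 (edgeR adjusted p = 8.58e-05). miR-455-3p ranged from 167 to 579 CPM in brown fat and from 0 to 29.5 CPM in the hypothalamus (4.37 ± 0.63, edgeR adjusted p = 2.46e-06). In all 3 the groups did not overlap. miR-193b itself was less clear: miR-193b-5p ranged from 92.3 to 230 CPM against 14.4 to 166 CPM and was not called (0.8 ± 0.58, edgeR adjusted p = 0.211), though 5 of the 10 fits that left out a library called it higher. miR-193b-3p, which did not pass the filter, had 106 counts against 2, and its groups overlapped. miR-203-3p, known from epidermis and listed among miRNAs enriched in brown fat, ranged from 541 to 1169 CPM against 0 to 47.9 CPM (4.62 ± 0.61, edgeR adjusted p = 8.6e-07). miR-182-5p ranged from 408 to 795 CPM against 0 to 134 CPM, the top hypothalamus value being library 5 (3.93 ± 0.8, edgeR adjusted p = 0.000152, and 7.58 ± 0.72 without that library). Its cluster partner miR-183-5p ranged from 95 to 389 CPM and from 0 to 326 CPM, and the groups overlapped through hypothalamus IP 5 (1.25 ± 0.77, edgeR adjusted p = 0.146). Without that library it was called higher, at 4.24 ± 0.67 (edgeR adjusted p = 4.24e-06). The list's lower member was miR-328-3p, at 807 to 1596 CPM in brown fat and 3201 to 7730 CPM in the hypothalamus (-1.89 ± 0.39, edgeR adjusted p = 0.000191). Its call was lost when 3 of the 10 IP libraries were left out in turn, and without brown fat IP 2 it stood at -0.67.

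**Figure D1:**
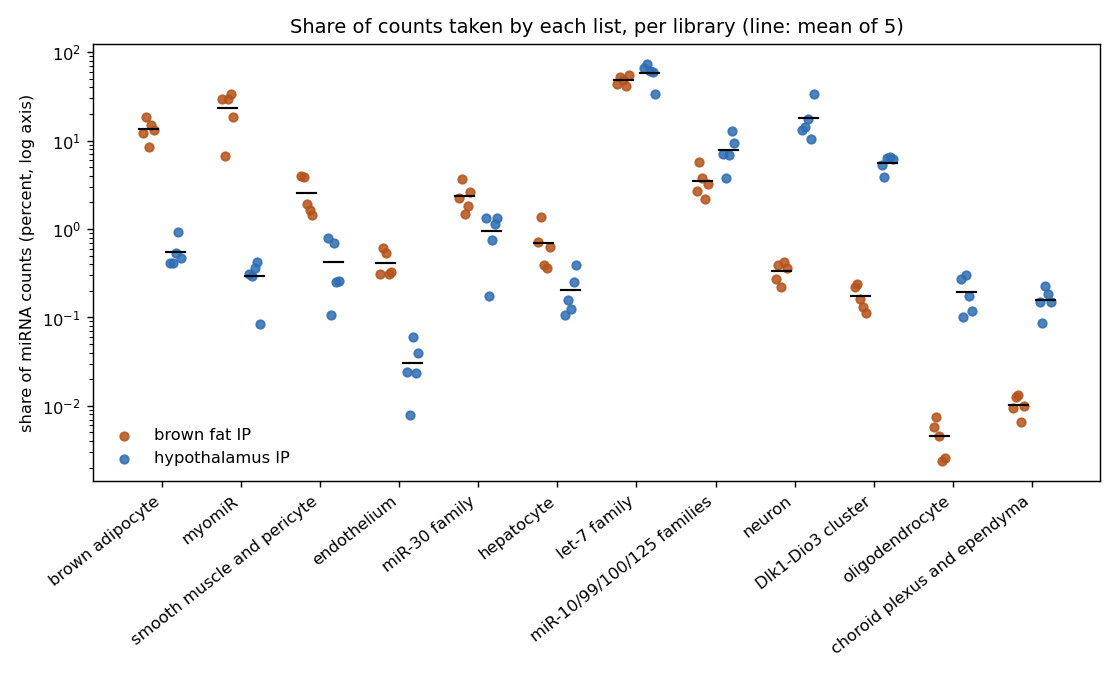
Share of miRNA counts (percent, log axis) taken by each list of miRNAs in each of the 5 brown fat and 5 hypothalamus IP libraries; points are libraries and lines the mean of 5. The brown adipocyte list took 8.51 to 18.3% against 0.408 to 0.922%, the neuron list 0.22 to 0.423% against 10.5 to 33.9%, and the let-7 shares overlapped.

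The striated muscle miRNAs were as high in the brown fat IP as the miR-378 group and varied more between mice. miR-1a-3p stood at 213742, 48057, 211257, 238267 and 130987 CPM in the brown fat IPs and at 2221, 2071, 2657, 3009 and 632 CPM in the hypothalamus IPs. Brown fat IP 2 held the lowest brown fat value, still above every hypothalamus library, and the log2 fold change was 6.44 ± 0.62 (edgeR adjusted p = 1.73e-08). The entry miR-1b-5p shares the reads of this locus, at lower CPM, and gave the same log2 fold change. miR-206-3p, the member known from skeletal muscle, ranged from 2356 to 16476 CPM against 4.79 to 207 CPM (6.54 ± 0.77, edgeR adjusted p = 1.76e-07). miR-133a-3p ranged from 205 to 2620 CPM against 0 to 46.4 CPM (6.45 ± 0.88, edgeR adjusted p = 1.15e-06). The list of 17 entries, 4 of which passed the filter and were higher (3 loci, each averaging 10 CPM or more in both groups), took 6.66 to 33.6% of the brown fat IP counts and 0.0848 to 0.422% of the hypothalamus IP counts. Over all 202 miRNAs tested, 29.7% were higher. In the brown fat inputs miR-1a-3p stood at 63976 to 279947 CPM, so it was abundant before the pull-down too. Whether it came from brown adipocytes or from muscle beside the depot was not tested.

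Of the Hox cluster miRNAs, miR-10a, miR-10b and miR-615 had large differences as well. Another, miR-196a-5p, did not pass the filter, with overlapping groups at means of 2.01 CPM in brown fat and 1.99 CPM in the hypothalamus. miR-10b-5p stood at 2271, 5610, 2281, 1482 and 1948 CPM in brown fat and at 17.4, 0, 9.27, 0 and 4.79 CPM in the hypothalamus (8.11 ± 0.69, edgeR adjusted p = 2.93e-09). miR-10a-5p stood at 5983, 13188, 5620, 4882 and 5191 CPM against 105, 9.96, 18.5, 29.5 and 28.7 CPM (7.18 ± 0.7, edgeR adjusted p = 1.73e-08). The highest value of both was brown fat IP 2. miR-615-3p, which lies in the Hoxc cluster, ranged from 186 to 414 CPM, and in the hypothalamus it was seen only in library 1, at 17.4 CPM (5.63 ± 0.77, edgeR adjusted p = 1.28e-06). Against the other 4 hypothalamus libraries, with 0 counts, it was at least 50.4-fold higher at the floor of 3 counts.

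The miRNAs of blood vessels and connective tissue were higher in brown fat by a smaller margin. miR-126a-3p, the endothelial miRNA, ranged from 1474 to 2891 CPM against 39.8 to 288 CPM (3.54 ± 0.53, edgeR adjusted p = 4.1e-06), and the entry miR-126b-5p lies on the other strand of the locus and shares its reads. miR-143-3p of smooth muscle ranged from 14163 to 39091 CPM against 1065 to 7914 CPM (2.39 ± 0.59, edgeR adjusted p = 0.00101), and miR-145a-3p from 120 to 224 CPM against 0 to 32.5 CPM (3.09 ± 0.57, edgeR adjusted p = 5.58e-05). miR-199a-3p, known from fibroblasts, ranged from 817 to 1631 CPM against 0 to 101 CPM (4.52 ± 0.66, edgeR adjusted p = 2.65e-06). miR-21a-5p ranged from 1355 to 10060 CPM against 59.0 to 292 CPM (4.44 ± 0.66, edgeR adjusted p = 3.39e-06). None of these groups overlapped. miR-199a-3p and miR-21a-5p were chosen after their values were seen, as were miR-182, miR-183, miR-193b, miR-351, miR-365, miR-455, miR-181a, miR-379, let-7d, let-7e and the blood cell and miR-200 markers.

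Defining markers of blood cells were at or near 0 in both pull-downs. miR-142a-3p, miR-223-3p and miR-451a were at 0 in every hypothalamus IP and at no more than 6.43 CPM in any brown fat IP, and miR-144-3p was at 0 in all 10. The 4 red blood cell entries that passed the filter, all of miR-486, belong to 1 locus and were not called, with a median of 0.64. With a library left out they ran from 0.72 to 1.94, and some other settings called them higher. The list took 0.145 to 0.355% against 0.0777 to 0.304% of the counts. Of the 2 leukocyte entries tested, miR-146a-5p was lower, as described with the inputs, and miR-150-5p was not called (1.25 ± 0.56, edgeR adjusted p = 0.0515). All 10 fits that left out a library called miR-150-5p higher, at 1.59 to 2.78, but these fits also moved the median of all miRNAs up. Of the 3 hepatocyte list entries tested, 2 were higher and 1 was not called, with a median of 2.24. Over all 202 tested, 29.7% were higher and the median was -0.29. miR-192-5p ranged from 95 to 526 CPM against 0 to 57.5 CPM (2.85 ± 0.63, edgeR adjusted p = 0.000339). miR-148a-3p ranged from 2508 to 11805 CPM against 319 to 3487 CPM (2.24 ± 0.66, edgeR adjusted p = 0.00414), and at 4.47 ± 0.49 without hypothalamus IP 5. miR-122-5p, the defining liver miRNA, stood at 639 to 1299 CPM in brown fat and 335 to 1873 CPM in the hypothalamus, with overlapping groups (0.19 ± 0.42, edgeR adjusted p = 0.691).

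**Figure D2:**
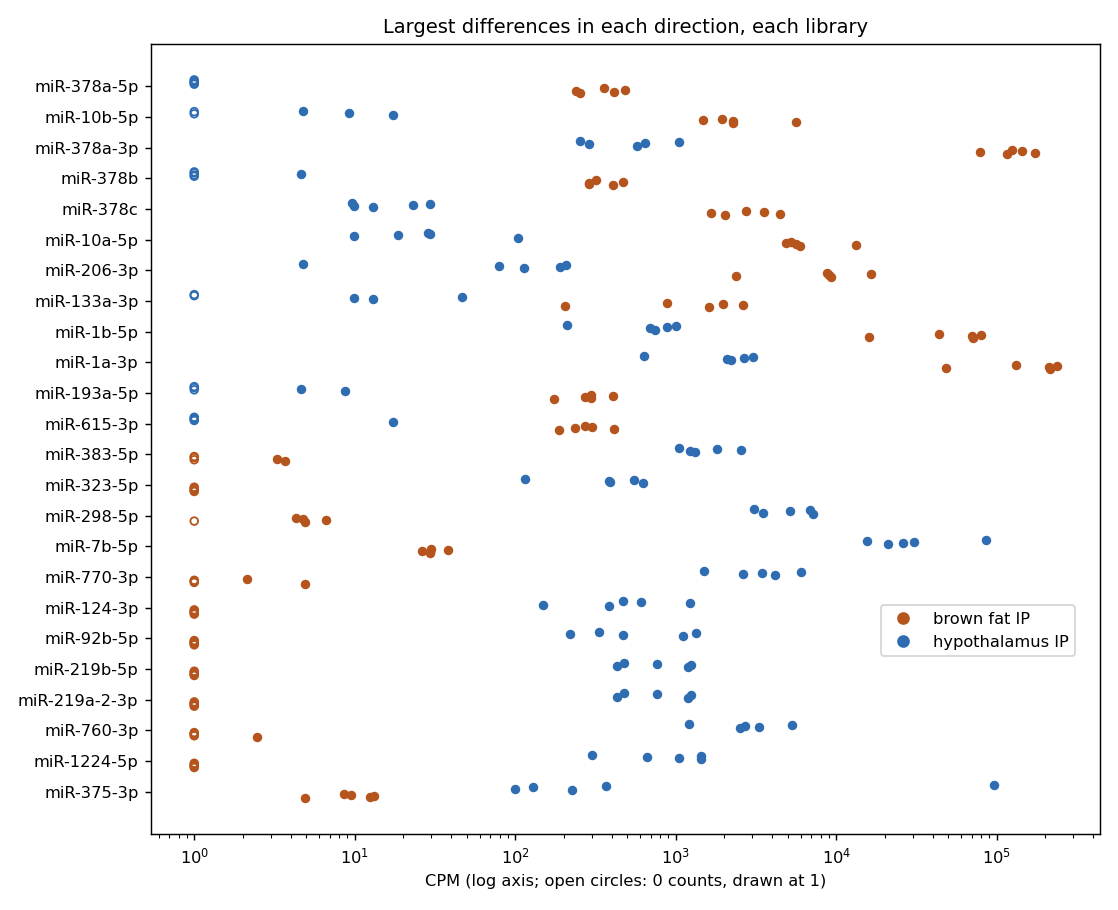
CPM (log axis) in each of the 10 IP libraries for the 12 miRNAs with the largest log2 fold change in each direction, among those called with a mean of at least 100 CPM; open circles are 0 counts, drawn at 1. In every miRNA shown the 5 brown fat and the 5 hypothalamus libraries do not overlap, and for miR-375-3p a single hypothalamus library lies at 96630 CPM with the others at 99.6 to 369 CPM.

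On the hypothalamus side neuronal miRNAs led. Of 54 entries of the neuron list, 44 had a count, 15 passed the filter and all 15 were lower in brown fat, with a median log2 fold change of -7.52 (-7.16 with entries at 0 at their bound). Several could pass only through the hypothalamus. Among the 7 with at least 10 CPM in both groups, 7 were lower, beside 34.8% of all miRNAs under that filter.

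miR-7a-5p, known from neurons and endocrine cells, stood at 1830, 2953, 1078, 3871 and 2694 CPM in brown fat and at 75193, 92600, 94314, 49196 and 224131 CPM in the hypothalamus. The groups lay well apart (-5.48 ± 0.6, edgeR adjusted p = 6.57e-08). miR-7b-5p has the same seed and was far rarer in brown fat, at 26.4 to 38 CPM against 15637 to 85384 CPM (-10.25 ± 0.74, edgeR adjusted p = 3.97e-10). Both were highest in hypothalamus IP 5, and without it the log2 fold changes were -4.01 ± 0.47 and -8.65 ± 0.53.

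miR-9-5p, a miRNA of neural progenitors and neurons, stood at 93.0, 83.5, 109, 57.0 and 62.2 CPM in brown fat and at 13620, 10096, 25106, 12288 and 10016 CPM in the hypothalamus (-7.52 ± 0.58, edgeR adjusted p = 8.11e-10). miR-128-3p ranged from 157 to 850 CPM against 5058 to 13424 CPM (-4.42 ± 0.53, edgeR adjusted p = 1.96e-07). Both groups were separate. miR-124-3p, the best known neuronal miRNA, had 0 counts over the brown fat IPs and 507 over the hypothalamus IPs, at 383, 149, 1229, 605 and 469 CPM. It was at least 442-fold lower in brown fat. miR-1224-5p had 0 against 740 counts, at least 645-fold lower, and miR-760-3p 2 against 2108, a hypothalamus to brown fat ratio of 2750 with an interval of 762 to 22800. miR-383-5p ranged from 0 to 3.67 CPM against 1044 to 2541 CPM (-9.45 ± 0.74, edgeR adjusted p = 8.11e-10).

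Glial and ventricular miRNAs were lower in brown fat as well. The reads listed as miR-219a-2-3p and miR-219b-5p, 1 locus on chromosome 2 (chr2:29845647-29845668 for miR-219b-5p) and known from oligodendrocytes, numbered 0 in brown fat and 737 in the hypothalamus, at least 642-fold lower. miR-338-5p, also of oligodendrocytes, ranged from 14.2 to 47.7 CPM against 159 to 478 CPM (-3.32 ± 0.55, edgeR adjusted p = 1.53e-05). miR-204-5p, known from the choroid plexus, ranged from 38 to 125.2 CPM against 568 to 1744 CPM (-3.95 ± 0.5, edgeR adjusted p = 4.34e-07). miR-34c-5p of ciliated cells ranged from 6.59 to 28.5 CPM against 69.7 to 241 CPM (-2.83 ± 0.56, edgeR adjusted p = 0.000111).

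The imprinted Dlk1-Dio3 cluster on chromosome 12, whose miRNAs come from the maternal allele and are abundant in the adult brain, moved as a block. Of 107 entries 81 had a count, 22 passed the filter and all 22 were lower in brown fat, with a median of -6.01 (-5.97 with bounds). Of these, 12 had at least 10 CPM in both groups, and 12 of the 12 were lower, beside 34.8% of all miRNAs under that filter. The cluster took 0.111 to 0.236% of the brown fat IP counts and 3.85 to 6.59% of the hypothalamus IP counts. miR-127-3p (chr12:109592888-109592909) stood at 534, 460, 320, 294 and 201 CPM against 8855, 3475, 10323, 17820 and 22163 CPM (-5.11 ± 0.58, edgeR adjusted p = 1.06e-07). miR-770-3p (chr12:109563744-109563765) was all but absent from brown fat, at 4.90, 0, 0, 0 and 2.14 CPM against 4151, 2639, 3436, 6019 and 1509 CPM (-10.34 ± 0.77, edgeR adjusted p = 4.88e-10). The smallest difference in the cluster was that of miR-379-5p, at 313 to 552 CPM against 870 to 3214 CPM (-2.16 ± 0.49, edgeR adjusted p = 0.000432), and its call was kept in 7 of the 10 fits that left out a library (-0.92 without brown fat IP 5). miR-298-5p, from the imprinted Gnas region, ranged from 0 to 6.59 CPM against 3080 to 7191 CPM (-10.09 ± 0.71, edgeR adjusted p = 3.5e-10).

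**Figure D3:**
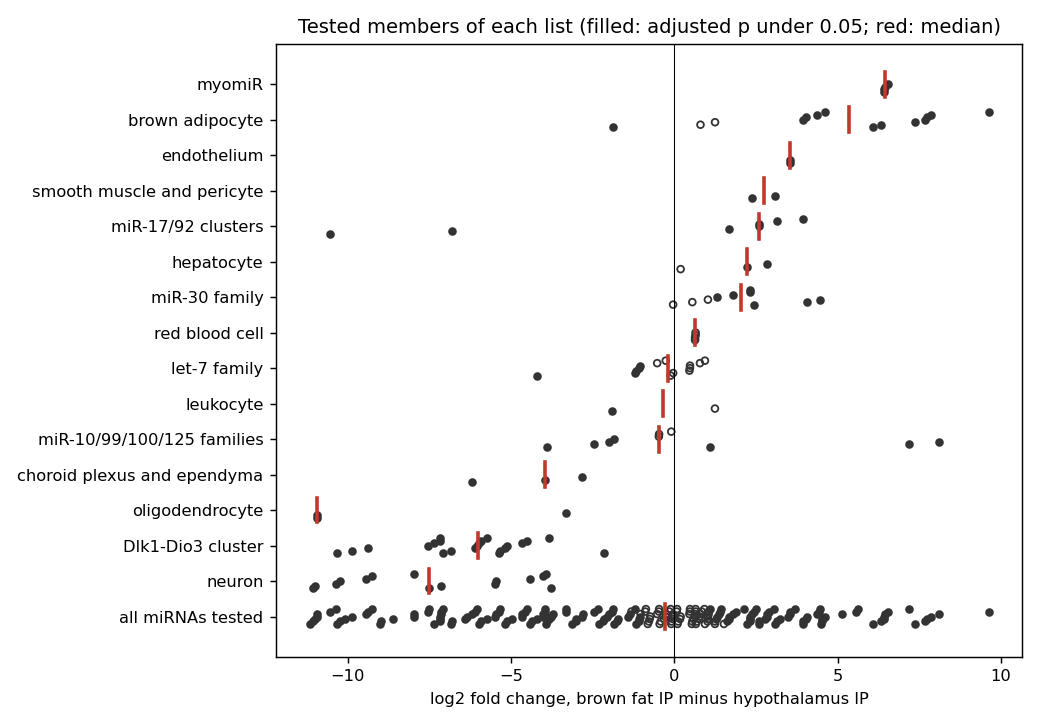
Log2 fold change (brown fat IP minus hypothalamus IP) of the tested members of each list and of all 202 tested miRNAs; filled circles have an adjusted p under 0.05 and red lines are medians, with miRNAs at 0 in a group drawn at their fitted value. The muscle list has its median at 6.44, the Dlk1-Dio3 cluster at -6.01 and let-7 at -0.19; the oligodendrocyte median of -10.94 is the fitted value of 1 locus listed under 2 names, at 0 counts in brown fat, and is -9.33 at its bound.

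miR-375-3p, known from pancreatic islet and pituitary cells, had the largest fitted difference, and it rested on 1 library. The brown fat IPs held 4.90, 12.5, 13.2, 9.5 and 8.57 CPM and the hypothalamus IPs 226, 99.6, 130, 369 and 96630 CPM. The groups did not overlap with or without the high library. The log2 fold change was -11.15 ± 1.98 (edgeR adjusted p = 3.2e-05) in all 10 libraries and -3.51 ± 0.54 (edgeR adjusted p = 2.9e-06) without hypothalamus IP 5. The same library held the highest hypothalamus values of miR-7a-5p, miR-7b-5p, miR-148a-3p, miR-200b-3p and miR-182-5p and the lowest let-7 share, 33.4% against 60.2 to 73.8% in the other 4. The miR-200 family, known from epithelia, took 0.331% of its counts and at most 0.00174% in the other hypothalamus IPs. Among the hypothalamus inputs miR-375-3p was at 350 to 388 CPM in libraries 1 to 3, 17740 CPM in library 4 and 38130 CPM in library 5. The part of these miRNAs in other results was not tested beyond leaving the library out.

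**Figure D4:**
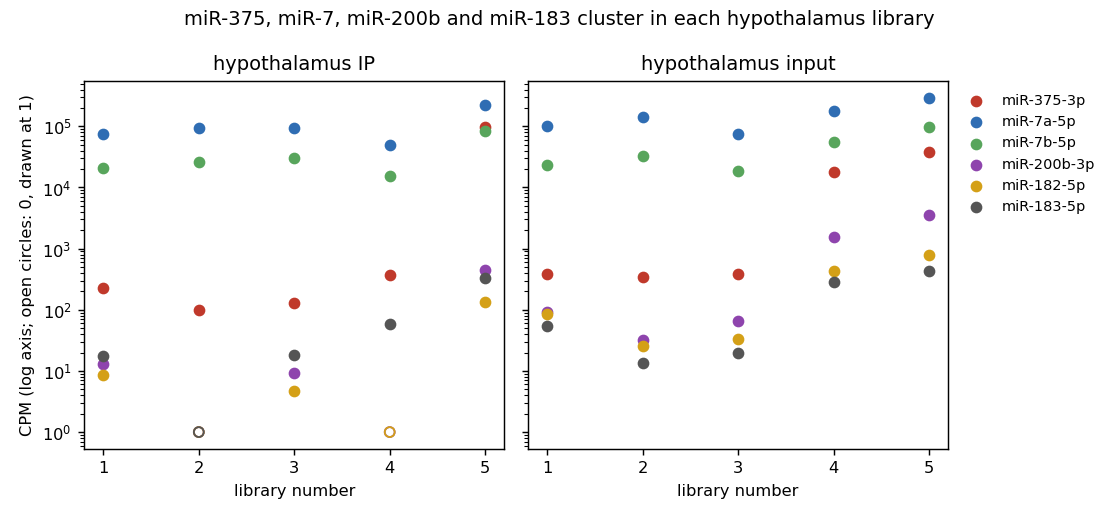
CPM (log axis) of 6 miRNAs in each hypothalamus IP (left) and input (right) library; open circles are 0, drawn at 1. miR-375-3p lies at 99.6 to 369 CPM in 4 IP libraries and at 96630 CPM in library 5, and in the inputs libraries 4 and 5 lie above the other 3.

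Families with a shared seed did not always go one way. With the seed AUUGCAC, miR-92a-3p ranged from 1449 to 3363 CPM in brown fat against 159 to 546 CPM (2.58 ± 0.44, edgeR adjusted p = 1.86e-05) and miR-25-3p from 608 to 3471 CPM against 79.7 to 699 CPM (2.59 ± 0.56, edgeR adjusted p = 0.000266), the latter with overlapping groups. miR-92b-3p (chr3:89227126-89227147, minus strand) was at 30.6, 29.2, 33.0, 9.5 and 45.0 CPM against 4364, 2370, 1785, 6063 and 2994 CPM. It went the opposite way from the other two (-6.82 ± 0.57, edgeR adjusted p = 2.14e-09). The other arm of its hairpin, miR-92b-5p, had 0 against 507 counts and was at least 442-fold lower.

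The seed GUAAACA marks the 5p arms of miR-30, and 3 of the 4 tested were higher in brown fat, beside 29.7% of all 202 tested. miR-30a-5p stood at 6675, 12787, 3068, 6744 and 8695 CPM against 423, 79.7, 454, 457 and 690 CPM (4.05 ± 0.58, edgeR adjusted p = 2.45e-06), and miR-30e-5p ranged from 409 to 1462 CPM against 0 to 92.7 CPM (4.48 ± 0.66, edgeR adjusted p = 3.19e-06). The fourth, miR-30d-5p, ranged from 4094 to 14120 CPM against 797 to 11634 CPM and was not called (-0.04 ± 0.56, edgeR adjusted p = 0.95). With the seed CCCUGAG, miR-125a-5p and miR-125b-5p were lower and miR-351-5p was not. The call of miR-125a-5p was lost in 4 of the 10 fits that left out a library, and it stood at -0.75 without brown fat IP 5. miR-125b-5p ranged from 3415 to 7874 CPM against 12008 to 46275 CPM (-2.47 ± 0.44, edgeR adjusted p = 3.2e-05). miR-351-5p ranged from 71.0 to 142 CPM against 9.96 to 62.3 CPM without overlap (1.05 ± 0.5, edgeR adjusted p = 0.0638). All 10 fits that left out a library, which moved the median of all miRNAs up, called it higher. With the seed ACAUUCA, 3 of 3 miR-181 members were lower in brown fat, beside 43.1% of all 202 tested. miR-181a-5p ranged from 204 to 334 CPM against 378 to 1962 CPM (-2.33 ± 0.47, edgeR adjusted p = 0.000131, and -1.10 without brown fat IP 2, the 1 fit of 10 that lost the call).

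The let-7 family restrains growth genes and is abundant in most adult tissues. It made up much of both pull-downs, 41.1 to 55% of the brown fat counts and 33.4 to 73.8% of the hypothalamus counts. In the inputs its share was smaller, 7.28 to 10.7% in brown fat and 6.66 to 11.6% in the hypothalamus. The cause of that gap between IP and input was not tested. Of the 9 tested with the seed GAGGUAG, 0 were called higher, 5 lower and 4 neither, with a median log2 fold change of -1.05. Over all 202 tested, 29.7% were called higher and 43.1% lower, with a median of -0.29. let-7e-5p had the lowest log2 fold change of the 9, at 1246, 1207, 1780, 1325 and 2467 CPM in brown fat and 25110, 46130, 14530, 70760 and 12200 CPM in the hypothalamus. Its groups were separate (-4.2 ± 0.49, edgeR adjusted p = 1.4e-07). The others were within the uncertainty of the zero point. let-7a-5p ranged from 41643 to 91478 CPM against 68533 to 182970 CPM (-1.18 ± 0.37, edgeR adjusted p = 0.00735), and its call was lost in 8 of the 10 fits that left out a library. let-7g-5p ranged from 82525 to 143898 CPM against 34492 to 101580 CPM and was not called (0.79 ± 0.43, edgeR adjusted p = 0.103). It was called higher in 9 of the 10 fits that left out a library, at up to 2.22 without brown fat IP 2. The median of all miRNAs moved up by 1.22 in that fit.

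Called miRNAs were also described by sequence, among the 171 with a match. The median number of uridines, the base that 4TU replaces, was 6 in those higher in brown fat, 6 in those lower and 7 in those not called, with a median length of 22 bases in each. Of the 51 higher, 19 came from the 5p arm and 25 from the 3p arm, and 7 had no arm in their name. Of the 76 lower, 44 came from the 5p arm and 30 from the 3p arm, and 2 had no arm named. Among the 44 not called the numbers were 20, 20 and 4, and over all 171 they were 83, 75 and 13. These are descriptions, with no test.

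The tissue difference before the pull-down was close to that after it. In the inputs 351 of 429 miRNAs tested (81.8%) differed, 135 (31.5%) higher and 216 (50.3%) lower in brown fat. Across the 196 miRNAs tested in both, the log2 fold changes correlated at r = 0.93 (rho = 0.93), with a slope of 1.25 of IP on input and the same sign in 171. Without hypothalamus input 4, r was 0.95 and the slope 1.13. The hypothalamus inputs came from the same mice as the hypothalamus IPs. The brown fat inputs came from mice 2, 4, 6, 7 and 8, most of which also gave a brown fat IP. miRNAs are not independent replicates. Of the IP calls, 49 were higher in both and 73 lower in both, 2 were lower in the IP and higher in the input, and 0 the reverse. Another 11 higher and 7 lower IP calls were not called in the input. In turn, 21 miRNAs called higher and 13 called lower in the input were not called in the IP.

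Muscle, liver and brown fat miRNAs in the input comparison depended on hypothalamus input 4. There miR-1a-3p stood at 179063 CPM, against 1468 to 2475 CPM in the other hypothalamus inputs, and miR-122-5p at 17087 CPM against 103 to 323 CPM. The input difference of miR-1a-3p was 1.80 ± 1.49 (edgeR adjusted p = 0.278) with that library and 6.72 ± 0.7 (edgeR adjusted p = 3.07e-06) without it. For miR-378a-3p it was 4.92 ± 0.91 (edgeR adjusted p = 0.00035) and 6.64 ± 0.34 (edgeR adjusted p = 9e-09). For miR-122-5p it was -4.65 ± 1.63 (edgeR adjusted p = 0.0201) and 0.13 ± 0.46 (edgeR adjusted p = 0.799).

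The 2 miRNAs called in opposite directions were miR-146a-5p and let-7d-5p. miR-146a-5p, an inhibitor of innate immune signalling, stood at 311, 234, 283, 299 and 285 CPM in the brown fat IPs and at 1856, 169, 1131, 782 and 905 CPM in the hypothalamus IPs. The groups overlapped through hypothalamus IP 2 (-1.91 ± 0.56, edgeR adjusted p = 0.00426). In the inputs it ranged from 472 to 1187 CPM in brown fat against 230 to 441 CPM, without overlap (1.57 ± 0.29, edgeR adjusted p = 0.000324). The IP call was lost in 5 of the 10 fits that left out a library and with the mouse as a block (-1.72 ± 0.82, edgeR adjusted p = 0.0518). let-7d-5p ranged from 12415 to 28636 CPM against 31239 to 58711 CPM in the IPs (-1.05 ± 0.38, edgeR adjusted p = 0.0179) and from 2125 to 3120 CPM against 1446 to 3070 CPM in the inputs (0.66 ± 0.23, edgeR adjusted p = 0.0201). Its IP call was kept in 2 of the 10 fits that left out a library, which ran from -0.90 to 0.19.

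**Figure D5:**
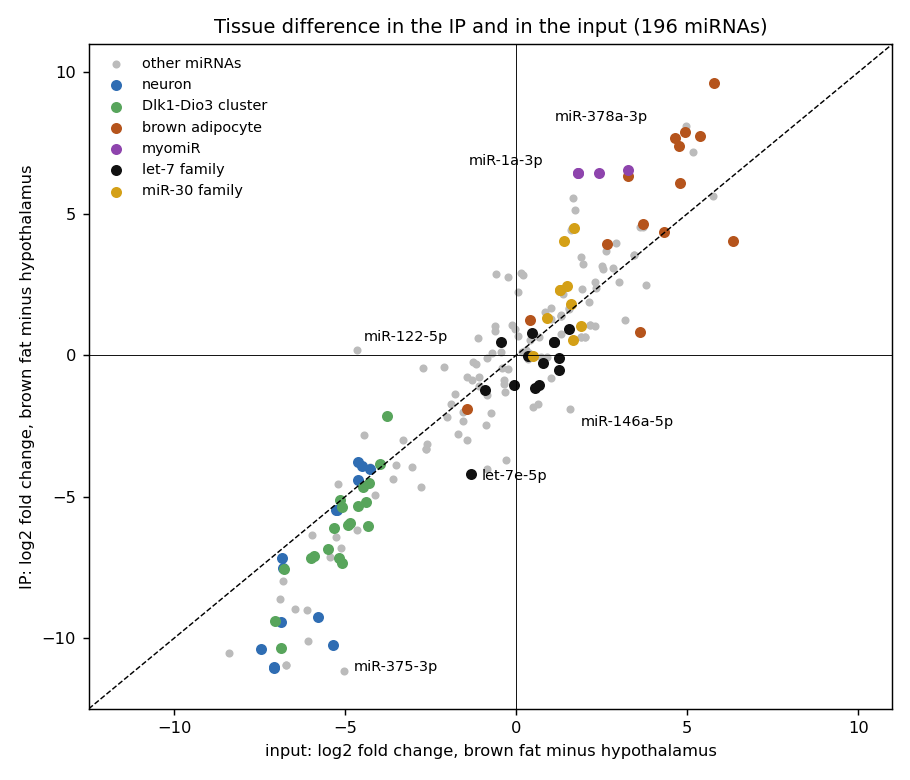
Log2 fold change (brown fat minus hypothalamus) in the IPs (y axis) against that in the inputs (x axis) for the 196 miRNAs tested in both, coloured by list; the dashed line marks equal values. The correlation is 0.93, miR-146a-5p lies below zero in the IP and above it in the input, and miR-122-5p lies far to the left through hypothalamus input 4.

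The difference between IP and input in this tissue contrast was tested as an interaction over the 20 libraries. The main fit took the libraries as independent, though many share a mouse, and the mouse entered only as an alternative. It called 145 of 422 miRNAs (34.4%), 9 (2.13%) with a more positive brown fat difference in the IP and 136 (32.2%) with a more negative one. That balance moved with the settings: RLE called 23 and 36, total count 29 and 13, and counting entries with shared reads once gave 143 and 4, while leaving out a library gave 7 to 196 of the positive kind. The cause was not tested. No overall direction can be read from it. A total of 22 miRNAs were called in the same direction under TMM, RLE and total count, 9 positive and 13 negative. These scalings do not span the shifts seen in other settings. They moved the median of all miRNAs by up to 1.45 log2 units, and counting shared entries once moved it by 2.8. In that setting 4 were called negative in all, so not all of the 13 hold there. With a library left out, 1 to 132 were called negative.

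Among the positive ones, miR-101a-3p ranged from 257 to 698 CPM in the brown fat IPs against 19.9 to 102 CPM in the hypothalamus IPs, while its inputs overlapped at 7736 to 22666 CPM and 9563 to 15188 CPM. Its interaction was 1.55 under TMM, 2.71 under RLE and 3.02 under total count, with edgeR adjusted p of 0.0296, 0.00171 and 0.00262. miR-101b-3p, its relative, was called in all 20 fits that left out a library, at 1.81 to 5.52. Among the negative ones, miR-7b-5p was at -6.19, -4.92 and -4.84 under the 3 scalings, and was also called in all 20, at -6.34 to -2.28. let-7e-5p was at -4.35, -3.23 and -2.8. In the inputs let-7e-5p ranged from 300 to 448 CPM in brown fat against 784 to 1720 CPM, a difference of -1.31 (edgeR adjusted p = 4.66e-05) next to -4.2 in the IPs. miR-125a-5p was at -3.54, -2.4 and -1.96, with inputs of 2881 to 5321 CPM against 2059 to 5295 CPM and IPs of 5305 to 19333 CPM against 21427 to 67296 CPM. No interaction value with a library left out is given for let-7e-5p or miR-125a-5p. Those fits moved the median of all miRNAs by -0.0647 to 3.34 log2 units, so how far both negative values hold is not settled.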

How the data were processed

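Small RNA libraries were made with the NEBNext small RNA kit from total RNA (input) or from RNA biotinylated at its thiol groups and pulled down with streptavidin (IP). The submitters' processing notes name fastp, STAR, featureCounts and the build mm10. No version, miRNA annotation, strand or multimapping setting is named there. The authors deposited 1 table of expected counts (estimated counts that need not be whole), with 19.0% of positive values in the 10 libraries whole within 0.001. They were rounded, which changed totals by at most 0.043%. Counts were tested in R 4.3.3 with edgeR 4.0.16 (filterByExpr by group, TMM, quasi-likelihood test, two-sided, Benjamini-Hochberg adjusted p under 0.05), the IP and the inputs over 10 libraries each and the interaction over 20. The pipeline was tested on simulated data. Figures used matplotlib 3.10.9.

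Alternatives were RLE and total count scaling, DESeq2 1.42.0, limma 3.58.1 (voom), other filters, all 40 libraries, thinning to equal depth, a minimum change of 1.5-fold, shared entries once, the mouse as a block, leaving out each library, and, chosen after seeing the data, 10 CPM in each group, neither hypothalamus library 5, and other TMM references. Named miRNAs were the 12 largest calls per direction that averaged 100 CPM or more, the 5 most abundant per IP group, up to 4 members per list, and the 5 largest interactions per direction; exceptions were chosen after their values were seen. The comparison, lists and rules were chosen with earlier results of these data known. Replicates are separate mice, and 3 mice gave both IPs. The correlation of their paired deviations was 0.03, -0.16 and 0.15. A total of 23 pairs of entries shared reads, such as both strands of a locus. Total counts per library stand in the report; depth limits what can be seen of miRNAs with few counts, and the spread between libraries is in each standard error.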

Additional observations from a re-analysis of the deposited data

Results flagged for a closer look

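In 146 groups of 5 libraries examined, 18 had a library far from the other 4 by its gap to the next CPM value. Of the 18, 4 were hypothalamus IP 5. No chance rate can be set beside that number, since some entries share reads. The rule also always flags a group with counts in a single library, as for miR-378b, miR-615-3p and miR-760-3p. There miR-375-3p stood at 96630 CPM (next 369), miR-7a-5p at 224100 (next 94310), miR-7b-5p at 85380 (next 30540) and miR-148a-3p at 3487 (next 620). Hypothalamus IP 4 was high for miR-5126 at 590 CPM, miR-6538 at 811 and miR-6236 at 974. Hypothalamus IP 3 was high for miR-9-5p at 25110 CPM, miR-34c-5p at 241, miR-133a-3p at 46.4 and miR-378b at 4.64. Hypothalamus IP 1 was high for miR-10a-5p at 104.5 CPM and miR-615-3p at 17.4. Brown fat IP 2 was high for miR-10a-5p at 13190 CPM, miR-10b-5p at 5610, miR-101a-3p at 698 and miR-100-5p at 3852, and brown fat IP 1 for miR-760-3p at 2.45.

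The tissue difference was more positive in the IP than in the input, by the interaction test on the TMM scale, for miR-101b-3p (1.9), miR-30e-5p (1.65), miR-101a-3p (1.55), miR-30a-5p (1.49) and miR-5099 (1.44). It was more negative for miR-375-3p (-7.46), for miR-219a-2-3p and miR-219b-5p, which are 1 locus (-7.33), for miR-1224-5p (-7.28) and for miR-7b-5p (-6.19). The call of miR-375-3p was lost in 16 of the 20 fits that left out a library, that of miR-1224-5p in 17 and that of miR-219b-5p in 13. With the mouse as a block, the adjusted p was 0.0517 for miR-30a-5p and miR-30e-5p and 0.0742 for miR-5099.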

How the results depend on the processing

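For the IP, called, higher and lower miRNAs numbered 147, 60 and 87. They were 367, 162 and 205 without a filter, 261, 116 and 145 at a minimum mean of 10 CPM, and 320, 128 and 192 with all 40 libraries, where more entries were tested. Lower calls numbered 54 after thinning and 56 at 10 CPM in each group, where fewer were tested. Higher calls numbered 102 with hypothalamus IP 2 as TMM reference. Leaving out a library gave 167 to 186 calls, 74 to 98 higher and 79 to 98 lower. With the replicate block for mouse, 138 were called (58 higher, 80 lower) and 136 of the 147 remained. It ended the call of miR-146a-5p and moved miR-6236 from -1.42 to 0.075. In the IP miR-6236 ran from -1.54 to 0.16 with a library left out, the top without hypothalamus IP 4. let-7f-5p, not called at -0.04, was called higher at 0.86 and 1.09 with brown fat IP 1 and hypothalamus IP 2 as reference, and left-out libraries moved it from 0.045 to 1.28: 1.16 and 1.11 without brown fat IP 3 and 5, 0.96 and 0.73 without hypothalamus IP 1 and 5. let-7c-5p, -1.07, was at 0.031 with hypothalamus IP 2 as reference and at -1.02 to 0.19 with a library left out (0.11 and 0.01 without brown fat IP 3 and 5). With hypothalamus IP 2 as reference miR-30d-5p was at 1.38 and miR-100-5p at 0.87.

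In the inputs, 351 calls (135 higher, 216 lower) became 563 (214, 349) without a filter, 216 with about 1.2e+02 lower after thinning, and 212 with 112 lower at 10 CPM in each group. Leaving out a library gave 359 to 375. let-7c-5p, -0.06 there, was at 0.57 under RLE and DESeq2 and 0.51 with shared entries once. With a library left out, miR-122-5p ran from -4.71 to 0.13 and miR-192-5p from -0.61 to 0.98, both highest without hypothalamus input 4.

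The interaction (145 called, 9 higher, 136 lower) gave 59 (23, 36) under RLE, 42 (29, 13) under total count, 94 with 85 lower without a filter, 92 (40, 52) in DESeq2, 66 (44, 22) with all 40 libraries, 76 (72, 4) after thinning, 49 (32, 17) at 10 CPM in each group, and 143 higher and 4 lower with shared entries once. Higher calls numbered 26 in limma-voom, 5 with the replicate block and 4 at a minimum change of 1.5-fold. Without either hypothalamus library 5 there were 159 higher and 2 lower, and miR-375-3p turned from -7.46 to 0.91 (-7.61 to 2.57 with a library left out, the top without the IP library alone). Leaving out a library gave 115 to 197 calls, 7 to 196 higher and 1 to 132 lower. The cause was not tested.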
